A study of Mus musculus with 2 samples.

Results

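The genes described here are 10 genes of squamous epithelium whose products build or accompany the cornified envelope, Sprr1a, Sprr1b, Sprr2a3, Sprr2f, Sprr3, Rptn, Ivl, Sbsn, Prr9 and Csta1. They were taken by name from the 28000 features that both libraries share, and all 10 had a feature in both. Prostate tumours of 2 mouse genotypes were profiled by single-cell RNA-seq (10x Genomics, 3′ chemistry), each genotype by 1 library. DoubleTg mice (hHGFtg:H11hMET/+:PBCre4), labelled prostatic adenocarcinoma, carried human HGF as a body-wide transgene (hHGFtg) together with human MET (hMETtg) at the H11 locus behind a stop cassette. PBCre4 is a Cre recombinase under a probasin promoter, which removes that cassette in prostate epithelium, so cells outside it and epithelial cells in which Cre did not act keep hMETtg silent. TripleTg mice, labelled prostatic carcinoma, carried the same transgenes and the Ctnnb1L(Ex3)/+ allele, from which Cre removes exon 3 and leaves a stabilised β-catenin. The age of the mice, and whether a library came from 1 mouse or from a pool, are not given in the sources used here.

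The cornified envelope is a protein shell that replaces the plasma membrane of a keratinocyte at the end of its life. Small proline-rich proteins, involucrin, repetin and loricrin are laid down under the membrane on a desmosomal scaffold and are joined to each other by transglutaminases. Most of these proteins are encoded next to each other in the epidermal differentiation complex. Prostate and urogenital glands are not cornified epithelia, although small proline-rich genes are known to be induced in simple and transitional epithelia under stress.

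Of the 10 genes, 8 lie on mouse chromosome 3 between 92122204 and 93399442 (GRCm38, gene spans of GENCODE release 21), a stretch of 1277 kb in the epidermal differentiation complex. Sbsn lies at chr7:30751471-30756134 and Csta1 at chr16:36119946-36131241. All 10 are annotated as protein-coding. The 3′ reads place a UMI (a unique molecular identifier, which marks 1 captured RNA molecule) near the end of a transcript, so the promoter is shown here only for what the genes share in sequence. RefSeq windows on GRCm38.p6, 250 bases before to 50 bases after each transcript start, matched all 10 genes. The letters TGANTCA, with N for any base, are a loose form of the core recognised by AP-1 factors. They occurred in the windows of 7 of the 10 genes and in 7.81% of the 32851 windows of all genes. The 9 matches in those 7 windows are printed below with their neighbouring bases on the gene's strand, the match in capitals. They share these letters because they were searched for, and the middle base differs. It is G or C in Sprr1a, Sprr2f, Ivl, Prr9 and the Sbsn match nearest the start. Sprr1b and the other Sbsn match have A, and Rptn has T.
Sprr1a, 146 bases before the start: taactaaagcTGAGTCAgagggtgaac
Sprr1a, 116 bases before the start: gggaggagggTGAGTCAtaggtgactg
Sprr1b, 111 bases before the start: gcacctaggaTGAATCAtgtctgacag
Sprr2f, 197 bases before the start: aactgaatatTGAGTCAcagtgctcaa
Rptn, 96 bases before the start: gagcccagaaTGATTCAggccctacca
Ivl, 116 bases before the start: agttatcagaTGACTCAgaaaggaagg
Sbsn, 119 bases before the start: atcttgtccaTGAATCAtcctgtcttc
Sbsn, 6 bases before the start: caggagggatTGAGTCAtgaggggtgg
Prr9, 138 bases before the start: atcacagcagTGACTCAaaccattcgt
Sprr1a and Sbsn each held 2 matches, and the others held 1. The letters CTTTGA, a core for TCF/LEF factors, were searched on both strands and occurred in 1 of the 10 windows, that of Csta1, and in 5257 of the 32851 windows of all genes. CACCC, a core for KLF factors, occurred on either strand in 6 of the 10 windows and in 57.5% of all windows, and 1 of its matches overlapped the Sprr1a match that lies 116 bases before the start. A match is a run of letters and not a measured binding site.

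The whole windows of 5 genes are printed because the results below turn on them, with AP-1 letters in capitals. Sprr1a with Prr9 was the DoubleTg pair found together in the most cells, and Sprr2a3 with Prr9 the TripleTg pair. Ivl was highest in TripleTg basal-like cells, and Rptn was nearly absent from DoubleTg. The windows lie at chr3:92485832-92486131 (minus strand), chr3:92123898-92124197 (minus strand), chr3:92573686-92573985 (minus strand), chr3:93393449-93393748 (plus strand) and chr3:92285054-92285353 (plus strand).
Sprr1a: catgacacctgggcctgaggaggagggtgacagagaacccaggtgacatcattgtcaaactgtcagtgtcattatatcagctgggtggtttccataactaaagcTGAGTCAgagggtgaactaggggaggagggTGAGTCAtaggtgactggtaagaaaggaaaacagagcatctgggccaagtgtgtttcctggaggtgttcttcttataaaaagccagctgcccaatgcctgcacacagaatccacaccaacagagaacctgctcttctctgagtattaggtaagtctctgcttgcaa
Prr9: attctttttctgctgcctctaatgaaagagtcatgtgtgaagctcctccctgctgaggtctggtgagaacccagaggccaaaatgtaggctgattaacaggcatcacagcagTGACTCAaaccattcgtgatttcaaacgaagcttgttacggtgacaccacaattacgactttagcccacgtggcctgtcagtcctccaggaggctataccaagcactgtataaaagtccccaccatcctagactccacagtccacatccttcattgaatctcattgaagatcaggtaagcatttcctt
Ivl: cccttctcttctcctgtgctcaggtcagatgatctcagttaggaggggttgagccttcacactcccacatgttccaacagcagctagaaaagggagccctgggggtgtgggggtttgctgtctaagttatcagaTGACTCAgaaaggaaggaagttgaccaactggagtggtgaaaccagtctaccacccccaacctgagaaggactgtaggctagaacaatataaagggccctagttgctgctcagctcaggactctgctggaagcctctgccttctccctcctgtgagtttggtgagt
Rptn: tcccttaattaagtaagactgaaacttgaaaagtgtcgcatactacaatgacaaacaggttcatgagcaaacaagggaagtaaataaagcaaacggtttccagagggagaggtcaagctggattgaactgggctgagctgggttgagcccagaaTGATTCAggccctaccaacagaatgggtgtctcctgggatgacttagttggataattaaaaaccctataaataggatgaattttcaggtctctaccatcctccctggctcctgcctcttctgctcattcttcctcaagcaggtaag
Sprr2a3: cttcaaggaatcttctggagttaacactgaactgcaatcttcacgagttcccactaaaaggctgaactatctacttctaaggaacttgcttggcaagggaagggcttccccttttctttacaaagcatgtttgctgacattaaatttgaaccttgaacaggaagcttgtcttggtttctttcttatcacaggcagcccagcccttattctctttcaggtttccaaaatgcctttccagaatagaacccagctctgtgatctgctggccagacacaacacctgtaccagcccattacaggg
The Sprr2a3 window holds none of the searched AP-1 letters. It ends at 92285353, before the GENCODE gene span begins at 92285417, so bases around that start were not searched. Of the 2793 windows of 90 bases in Sprr2a3 transcripts, 40.6% occur also in Sprr2a1 and 37.4% in Sprr2a2, so Sprr2a3 values are uncertain wherever a read could not be placed between these copies. Csta1 belongs to the stefin A gene family, and sequence shared with its relatives was not measured.

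**Figure D1:**
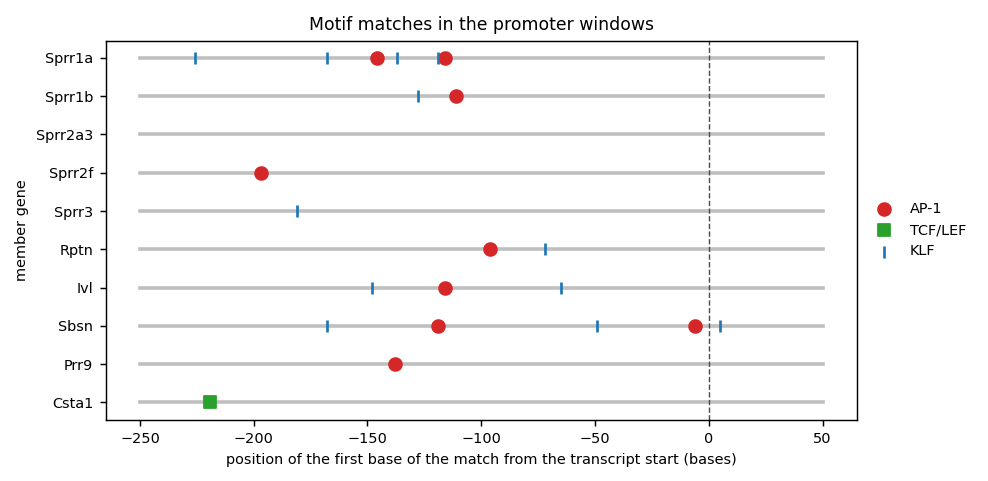
Positions of AP-1 (TGANTCA), TCF/LEF (CTTTGA) and KLF (CACCC) letters in the promoter windows of the 10 genes, in bases from the transcript start. AP-1 letters fall 96 to 197 bases before the start in 8 of the 9 matches, and the ninth lies 6 bases before the start of Sbsn.

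The DoubleTg library kept 10598 of 12072 cells with a median of 16761 UMIs, and the TripleTg library kept all 9492 cells with a median of 20097 UMIs. The libraries shared 30 cell barcodes, 29 of them among kept cells. Each library was clustered with the 10 genes and the wider lists left out of the clustering. Epithelial-like clusters held 6984 DoubleTg and 6608 TripleTg cells, in 14 clusters each. By marker genes, the DoubleTg cells were 4935 luminal-like and 1874 basal-like cells, 127 cells of seminal vesicle type and 48 others. The TripleTg cells were 4766 luminal-like and 609 basal-like cells, 375 of urothelial and 562 of seminal vesicle type, and 296 others. The seminal vesicle-like and urothelial-like cells carry markers of tissue other than the labelled prostate. With a single library per genotype there is no replicate and no test, and the intervals given are exact 95% intervals that cover counting error only.

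RNA of these genes was also counted in cells that should lack them, which sets a level to read the epithelial values against. At a fixed depth of 5000 UMIs per cell, at least 1 Prr9 UMI was found in 10.1% of the 1511 DoubleTg and 65.4% of the 858 TripleTg non-epithelial-like cells (fibroblast-, muscle-, endothelial-, immune- and glial-like), whose median depths before thinning were 7852 and 8730 UMIs. For Sprr1a the same shares were 20.1% and 22.4%, and for Sprr2a3 they were 1.99% and 30.3%. In TripleTg the neutrophil-like class (161 cells, median 2726 UMIs) held the most of Prr9, Sprr2a3, Sprr1a and Sbsn among the non-epithelial classes. A single UMI therefore does not mark a cell as expressing Prr9 or Sprr2a3 in TripleTg. For counts of cells, a minimum was therefore also set for each gene and library, the smallest number of UMIs that at most 5% of non-epithelial-like cells reached. It was 3 for Sprr1a and 2 for Prr9 in DoubleTg, and in TripleTg 3 for Sprr1a, 6 for Sprr2a3, 2 for Sprr2f, 2 for Sbsn and 11 for Prr9. All other genes kept a minimum of 1.

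Sprr1a, a small proline-rich envelope precursor that is also induced by stress and injury, was found in both luminal-like and basal-like clusters of DoubleTg. Its level was 1712 CPM (counts per 1000000 UMIs) over DoubleTg epithelial-like cells, 285 CPM in non-epithelial-like cells, and from 71.8 CPM in luminal-like cluster 5 to 4749 CPM in luminal-like cluster 13. Luminal-like clusters 12 and 15 followed with 3927 and 3022 CPM. Clusters 13, 12 and 15 are luminal-like groups led by Srpx and Rnase1, by 9530053A07Rik, and by Msln and Psca. Both basal-like clusters held less, 1591 and 1528 CPM, while luminal-like clusters 4 (Cxcl5, Pigr) and 5 (Sbp, Sbpl) lay below the level of most non-epithelial classes. In 10 of 14 DoubleTg clusters the level was above that of every non-epithelial class, the highest of which was 610 CPM in smooth muscle-like cells. In TripleTg the order of the classes was different. Sprr1a was 637 CPM over the epithelial-like cells and 108 CPM in the non-epithelial-like cells. It was highest in basal-like cluster 13 (2697 CPM), then in the 23 cycling cells of cluster 24 (2046 CPM) and in urothelial-like cluster 9 (1434 CPM). The luminal-like clusters of TripleTg ran from 174 CPM in cluster 1 to 900 CPM in cluster 15. Cells with 3 or more Sprr1a UMIs made up 91.7% of DoubleTg cluster 13, 62.3% of TripleTg basal-like cluster 13 and 9.92% of TripleTg luminal-like cluster 1.

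Sprr1b, the near relative of Sprr1a, was almost absent from DoubleTg with 11 UMIs in the epithelial-like cells, 8 of them in basal-like cluster 17. TripleTg epithelial-like cells held 1562 UMIs (7.68 CPM). Of these, 63.6% lay in cluster 22, 273 cells led by Krtap13-1, Mt4 and Gprc5d that are epithelial-like and were not named basal-like by the marker rule, although they held Krt5 at 1288 CPM beside 1358 CPM in basal-like cluster 13. The level of Sprr1b there was 135 CPM. In cluster 22, 11.1% of the cells had a UMI. By value, cluster 24 (15.1 CPM), basal-like cluster 13 (13.2 CPM) and luminal-like cluster 3 (13.0 CPM) also exceeded every non-epithelial class (at most 5.58 CPM). Their intervals did not clear those of the non-epithelial classes, as that of cluster 22 did.

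Sprr2a3, an envelope precursor of the Sprr2 group, was concentrated in few DoubleTg cells. The level was 157 CPM over the DoubleTg epithelial-like cells and 13.4 CPM in the non-epithelial-like cells, and 91.4% of its epithelial UMIs lay in the 5% of cells that held the most. Luminal-like cluster 1, led by the interferon-response genes Ifit3b and Rsad2, had 814 CPM. Cycling luminal-like cluster 23 and luminal-like cluster 15 had 427 and 425 CPM, and the basal-like clusters had 7.35 and 10.6 CPM. In TripleTg 42.7% of the epithelial-like cells reached the minimum of 6 UMIs, against 10.2% at the minimum of 1 UMI in DoubleTg. The level was 2115 CPM over the epithelial-like cells against 503 CPM in the non-epithelial-like cells, and 1663 CPM in the neutrophil-like class. Luminal-like clusters 5 (Pigr, Ltf), 1 (Defa5, Mmp20) and 3 (Krt73, Cnfn) had 4249, 4026 and 3150 CPM, and basal-like cluster 13 had 2682 CPM. Luminal-like cluster 15 (9530053A07Rik, Tgm4), with 170 CPM, and seminal vesicle-like cluster 12, with 148 CPM, were the lowest. Cells at the minimum of 6 UMIs were 75.2% of cluster 5 and 3.65% of cluster 15.

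Sprr2f, of the same group, belonged to other cells. In TripleTg 90.2% of its epithelial UMIs lay in seminal vesicle-like cluster 10 (421 cells led by Crisp1 and Pate4), at 2521 CPM. The next cluster, luminal-like cluster 14, had 159 CPM, and the highest non-epithelial class had 30.7 CPM. In DoubleTg it was 146 CPM in luminal-like cluster 12, 115 CPM in seminal vesicle-like cluster 16 and 97.4 CPM in luminal-like cluster 13, and at most 19.2 CPM in the others. Sprr3, which is abundant in oesophagus, had 0 UMIs in DoubleTg and 1 UMI in TripleTg epithelial-like cells, and is not described further.

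Ivl (involucrin, an early envelope scaffold protein) marked basal-like cells in TripleTg. Basal-like cluster 13 had 1294 CPM and 61.1% of the epithelial UMIs, and 65.7% of its cells had a UMI. The other clusters above every non-epithelial class (at most 74.2 CPM) were cycling cluster 24 with 434 CPM, urothelial-like cluster 9 with 411 CPM and luminal-like cluster 5 with 97.4 CPM. DoubleTg basal-like cells did not stand out in this way. Their clusters had 73.1 and 45.6 CPM, beside 74.5 and 67.2 CPM in luminal-like clusters 15 and 13 and 128 CPM in the 48 cells of cluster 22, which are led by Foxi1.

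Rptn (repetin, a calcium-binding envelope precursor) had 2 UMIs in all DoubleTg epithelial-like cells and 7963 UMIs (39.2 CPM) in TripleTg. Luminal-like cluster 3 held 69.1% of them at 238 CPM, and 30.9% of its cells had a UMI. Cluster 22 had 97.5 CPM and luminal-like cluster 1 had 41.0 CPM, and the highest non-epithelial class had 15.6 CPM. TripleTg basal-like cells, with the most Ivl, had 3.64 CPM of Rptn.

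Sbsn (suprabasin, a secreted protein of suprabasal keratinocytes) was a luminal-like gene in both libraries. In DoubleTg it was 61.0 CPM over epithelial-like cells and 8.51 CPM in non-epithelial-like cells, with the most in luminal-like clusters 15 and 3 (140 and 126 CPM) and 10.2 and 7.87 CPM in the basal-like clusters. In TripleTg it was 274 CPM against 68.2 CPM, and luminal-like clusters 3, 1 and 5 (797, 429 and 407 CPM) were above every non-epithelial class.

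Prr9, a proline-rich protein encoded in the complex, peaked in the same TripleTg cluster as Rptn and Sbsn. Luminal-like cluster 3 had 14332 CPM of Prr9, 43.7% of the epithelial UMIs, and 92.4% of its cells had at least 11 UMIs. Luminal-like clusters 1, 5, 4 and 0 followed with 6307, 4272, 3464 and 3364 CPM, all above the 2628 CPM of the neutrophil-like class, and basal-like cluster 13 had 276 CPM. In DoubleTg the gene was narrower. Luminal-like clusters 13 and 12 had 2812 and 2657 CPM, luminal-like cluster 15 had 743 CPM, and no other cluster exceeded the highest non-epithelial class (447 CPM in the 66 smooth muscle-like cells).

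Csta1, a stefin that inhibits cysteine proteases, took a place apart in DoubleTg. It was 76.8 CPM in luminal-like cluster 4 and 48.7 CPM in luminal-like cluster 5, the clusters that held the least Sprr1a, and at most 13.4 CPM in the other 12 clusters. In TripleTg the counts were low, 642 UMIs over all epithelial-like cells, with 23.3 CPM in cluster 22 and 9.37 CPM in basal-like cluster 13. The TripleTg neutrophil-like class had 2.23 CPM from 4 UMIs.

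**Figure D2:**
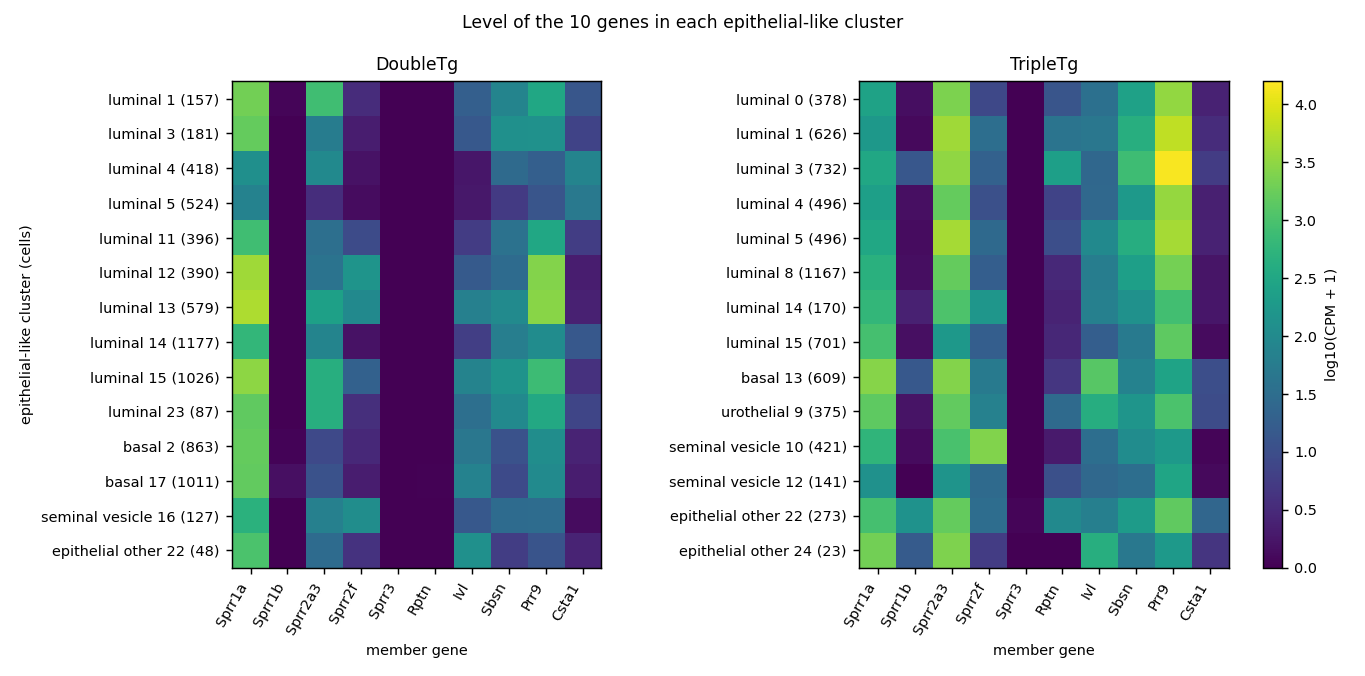
Level of each gene, as log10 of CPM + 1, in the 14 epithelial-like clusters of each library, with the number of cells of a cluster in brackets. Sprr1a and Prr9 are both brightest in DoubleTg luminal-like clusters 13 and 12, while in TripleTg Prr9 and Rptn are brightest in luminal-like cluster 3, Ivl and Sprr1a in basal-like cluster 13 and Sprr2f in seminal vesicle-like cluster 10.

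**Figure D3:**
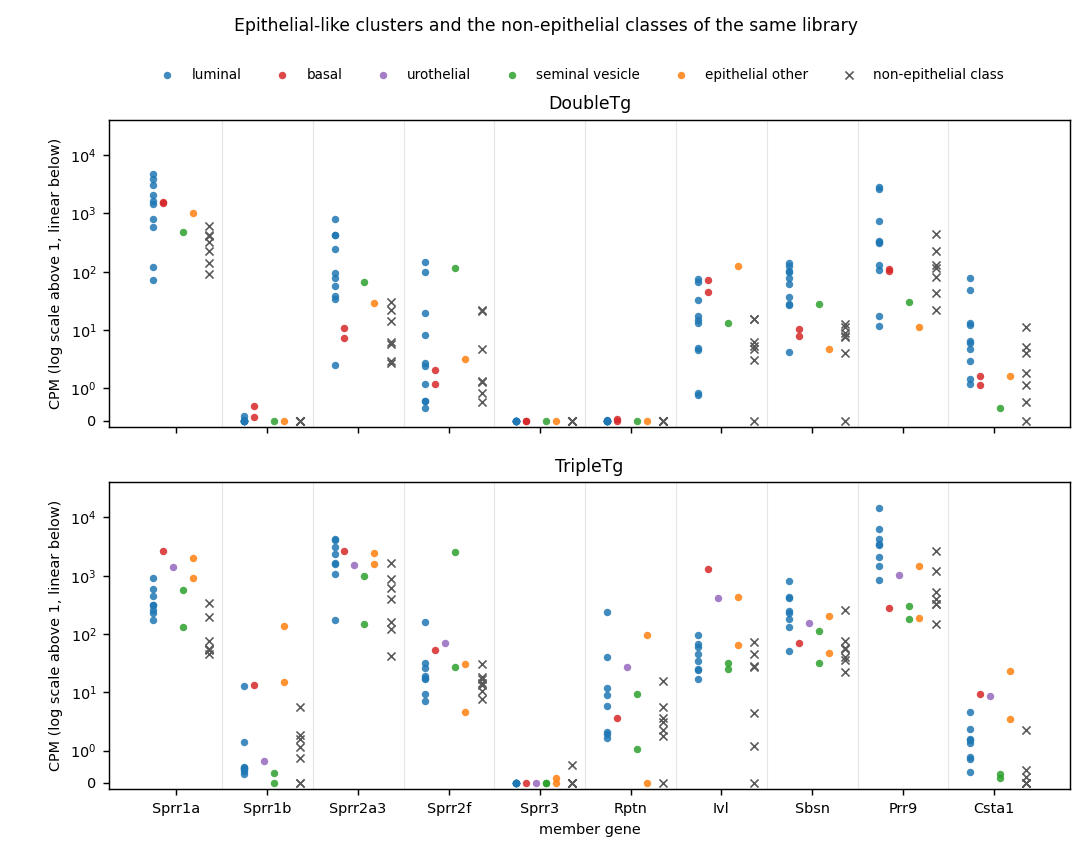
CPM of each gene in every epithelial-like cluster (points, coloured by class) and in the 7 non-epithelial-like classes (crosses) of each library, on an axis that is linear below 1 and logarithmic above it. TripleTg crosses for Prr9 and Sprr2a3 reach 2628 and 1663 CPM, so that 5 and 6 of 14 clusters lie above them.

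The next question was whether the genes occur together in the same cells. At 5000 UMIs per cell, 2687 of 6676 DoubleTg epithelial-like cells (40.2%, interval 39.1 to 41.4) had a UMI of 2 or more members, against 5.43% of non-epithelial-like cells. In TripleTg 86.4% (85.5 to 87.2) of 6333 cells did, against 40.8% of non-epithelial-like cells. With the minimums set from the non-epithelial-like cells these shares were 31.1% in DoubleTg (2.45% of non-epithelial-like cells) and 51.2% in TripleTg (5.59%). The low shares of the non-epithelial-like cells follow in part from how the minimums were set. At those minimums 4 or more members were in 3.40% of DoubleTg and 9.87% of TripleTg epithelial-like cells.

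The number of cells with 2 or more members was set against the number that the genes' own shares give when combined independently. It was 1.05 times that number in DoubleTg and 0.947 times in TripleTg at the minimums, and 0.988 and 0.957 times at 1 UMI. In TripleTg 5715 of 6333 cells were expected at 1 UMI, which leaves little room for a higher ratio. In DoubleTg the ratio rose to 1.42 with 3 UMIs for a member and to 1.15 at 2000 UMIs per cell. With the expected number formed inside clusters it was 1.05 with 3 UMIs, 0.997 at the minimums and 0.985 at 1 UMI in DoubleTg, and 0.982, 0.9503 and 0.963 in TripleTg. The clusters differed widely. In DoubleTg, 82.4% of the cells of luminal-like cluster 13, 64.4% of cluster 12 and 63.4% of cluster 15 held 2 or more members, and 2.85% of cluster 5 did. In TripleTg the share was 83.0% in luminal-like cluster 1, 80.5% in cluster 3, 75.6% in cluster 5, 68.5% in basal-like cluster 13 and 6.31% in seminal vesicle-like cluster 12.

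Single pairs departed from independence in both directions over the whole class, and less so inside clusters. Of the 45 pairs, 21 in DoubleTg and 35 in TripleTg had at least 3 cells expected at the minimums. In DoubleTg 12 pairs reached 1.5 times the expected number or more and 4 were at 0.67 times or less. When the expected number was formed inside each cluster, 5 of 20 pairs were at 1.5 times or more and 0 of 20 at 0.67 or less. In TripleTg 16 pairs were at 1.5 or more and 4 at 0.67 or less, and inside clusters these numbers were 8 and 0 of 33. The median pair was at 1.55 times the expected number over the whole class and 1.18 times inside clusters in DoubleTg, and at 1.43 and 1.26 times in TripleTg.

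In DoubleTg the leading pair was Sprr1a with Prr9, found together in 1256 cells against 726 expected, which is 81.6% of the cells with Prr9. Inside clusters 1113 were expected, and the ratio fell from 1.73 to 1.13. Across the 6676 cells, which share 1 library and the fixed depth, Pearson's r of their log UMIs was 0.45. Csta1 kept away from both. It met Prr9 in 15 cells against 61.8 expected and Sprr1a in 45 cells against 126 expected. Inside clusters these pairs came to 0.763 and 0.885 times the expected number.

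In TripleTg Sprr2a3 and Prr9 shared 1702 cells against 1128 expected (1.51 times, r = 0.45), and Sbsn and Prr9 shared 1173 against 688 (1.70 times, r = 0.47). Inside clusters these pairs came to 1.21 and 1.17 times the expected number. Rptn was with Prr9 in 312 cells against 148 expected, 87.9% of all cells with Rptn, and with Sbsn at 2.38 times the expected number. Inside clusters these ratios were 1.16 and 1.35, so that the first fell from 2.11. Sprr1a and Ivl, both highest in basal-like cluster 13, shared 555 cells against 301 expected (1.85 times, r = 0.44) and came to 1.34 times inside clusters. Sprr2a3 also met Ivl, in 790 cells against 479 expected (1.65 times, and 1.37 inside clusters), which is 70.3% of the cells with Ivl. Ivl and Sbsn (1.03) and Sprr1a and Sprr2a3 (1.07) were near the expected number over the whole class, and inside clusters they came to 1.27 and 1.18. Fewer cells than expected held Rptn with Ivl (0.604 times) or Sprr2f, the gene of seminal vesicle-like cells, with Prr9 (0.313 times), and inside clusters these came to 0.957 and 1.24.

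The exact sets of members carried by single cells were also counted. Among DoubleTg cells with 2 or more members, Sprr1a with Prr9 and no other member was the most frequent set (586 of 2073 cells, 28.3%), and Sprr1a with Sbsn came next (218 cells). In TripleTg Sprr2a3 with Prr9 (505 of 3241 cells, 15.6%) and Sprr2a3 with Sbsn and Prr9 (452 cells, 13.9%) led. The set of Sprr1a, Sprr2a3 and Ivl was carried by 247 cells, 204 of them (82.6%) in basal-like cluster 13. Sprr1a with Prr9 (142 cells), Sprr2a3 with Ivl (124 cells) and Sprr2a3 with Ivl, Sbsn and Prr9 (114 cells) were other frequent sets, with luminal-like cluster 15, basal-like cluster 13 and luminal-like cluster 5 giving the most cells. The set of Sprr2a3, Rptn, Sbsn and Prr9 was carried by 103 cells, 82 of them (79.6%) in luminal-like cluster 3.

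**Figure D4:**
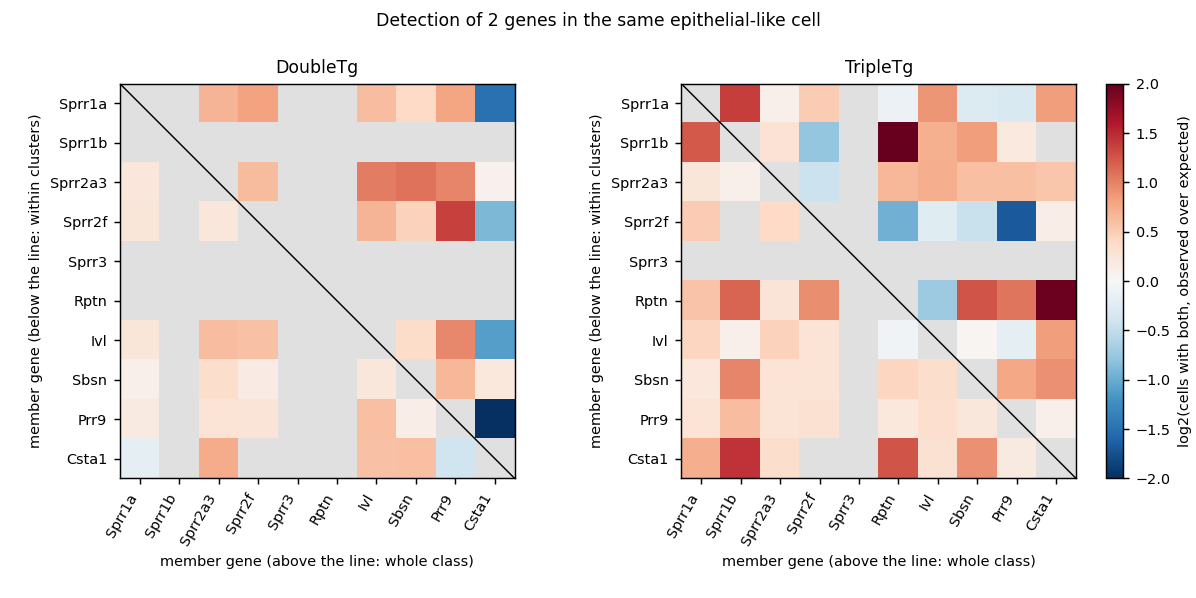
Log2 of observed over expected cells for each pair of members at the minimums set from non-epithelial-like cells, with the whole epithelial-like class above the diagonal and the expectation formed inside clusters below it. Grey marks pairs with under 3 cells expected and the colour scale ends at 2 in both directions. The DoubleTg squares of Csta1 with Sprr1a and Prr9 above the diagonal (0.243 times the expected number with Prr9) are paler below it (0.763 times).

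Between the genotypes, 7 of the 9 members with a ratio were at least 2-fold higher (log2 of 1) in TripleTg epithelial-like cells and 2 were at least 2-fold lower, and the median log2 ratio was 2.56. Over the 9102 genes tested, 9.58% were this much higher and 12.0% this much lower, with a median of -0.12. Sprr1b and Rptn reached the 5 CPM that the tested genes had to reach only in TripleTg, and Csta1 only in DoubleTg, so the filter fixed their direction, and the counts are descriptions. Since each genotype is 1 library, genotype, mouse and library cannot be told apart. Values in the non-epithelial-like cells moved too, with Prr9 at 722 CPM in TripleTg against 122 CPM in DoubleTg, Sprr2a3 at 503 against 13.4 CPM and Sbsn at 68.2 against 8.51 CPM, and their part in the ratios was not tested.

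Among the small proline-rich genes, Sprr2a3 was 2115 CPM in TripleTg and 157 CPM in DoubleTg, a log2 ratio of 3.75 (3.73 to 3.77). Sprr2f was 262 against 25.3 CPM (3.37), and Sprr1b had 1562 against 11 UMIs (7.33, 6.48 to 8.33). Sprr1a went the other way, at 637 against 1712 CPM (-1.43, -1.44 to -1.42). Of the other envelope proteins, Ivl was 149 against 30.7 CPM (2.28), Sbsn 274 against 61.0 CPM (2.17) and Prr9 3734 against 632 CPM (2.56). Rptn, with 7963 against 2 UMIs, had the largest ratio of the members, 12.13 (10.28 to 15.18). Csta1 was lower at 3.16 against 16.4 CPM (-2.37, -2.50 to -2.25). With cells thinned to 5000 UMIs the ratio of Csta1 was -1.52, that of Sprr1b 6.59 and that of Rptn, with 0 UMIs left in DoubleTg, at least 8.72.

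The direction of Sprr1a depended on the class of cell. TripleTg luminal-like cluster 8 (1167 of 4766 cells), with the urothelial gene Upk1b among its top 10 genes, was left out of the luminal comparison. Its level of the urothelial gene Upk3a was 1.90 CPM, against 52.5 CPM in urothelial-like cluster 9. The comparison held 3599 TripleTg and 4935 DoubleTg luminal-like cells, and no ratio with cluster 8 included is given. There, Sprr1a was 382 against 1768 CPM (-2.21), and in the 609 and 1874 basal-like cells it was 2697 against 1549 CPM (0.80). Csta1 was lower in luminal-like cells (-3.20) and higher in basal-like cells (2.85, from 134 against 34 UMIs). It reached 5 CPM in 1 library alone each time, with 18.8 CPM in DoubleTg luminal-like and 9.37 CPM in TripleTg basal-like cells. The filter therefore fixed both directions of Csta1. Sprr2f did not separate the luminal-like cells (-0.030, -0.097 to 0.036) and was higher in basal-like cells (5.16), whereas 90.2% of its TripleTg UMIs were seminal vesicle-like. Sprr2a3 was higher in both, at 2590 against 180 CPM in luminal-like cells (3.85) and 2682 against 9.53 CPM in basal-like cells (8.14). Prr9 was higher by 3.03 in luminal-like and 1.38 in basal-like cells, and Ivl by 0.63 and 4.34. Sbsn was higher by 2.43 and 3.04. Rptn was 6795 against 1 UMI in luminal-like cells (13.55, 11.07 to 18.85), and in basal-like cells it was 52 against 1 UMI (6.57, 4.03 to 11.90). Sprr1b was 341 against 2 UMIs (8.23) and 189 against 9 UMIs (5.26).

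Counted by class, 5 members were at least 2-fold higher and 2 lower in luminal-like cells, and the members' median was 2.43. Of the 9053 genes that passed the filter of 5 CPM, 11.7% were higher and 14.1% lower. Sprr1b did not pass that filter, and of the 8 members that did 4 were higher and 2 lower, among them Rptn and Csta1, which passed through 1 library alone and so had their direction fixed. In basal-like cells 8 were higher and 0 lower, and the median was 4.34. Of the 8900 genes that passed, 13.3% were higher and 14.4% lower. Rptn did not pass there, and of the 8 members that did 7 were higher and 0 lower, among them Sprr1b, Sprr2f and Csta1, which passed through TripleTg alone. For 2 of them the basal-like level was below or close to that of the non-epithelial-like cells in both libraries. These 2 ratios are not read as higher expression in basal-like cells. Prr9 was 276 CPM in TripleTg and 106 CPM in DoubleTg basal-like cells, below the non-epithelial 722 and 122 CPM, and Sbsn was 71.1 and 8.65 CPM, beside 68.2 and 8.51 CPM. Sprr2a3, at 9.53 CPM in DoubleTg basal-like cells, was below the non-epithelial-like level in that library alone, so the size of its basal-like ratio is uncertain. TripleTg basal-like cells are a single cluster while DoubleTg has 2, and different clusters make up the luminal-like class of each library.

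**Figure D5:**
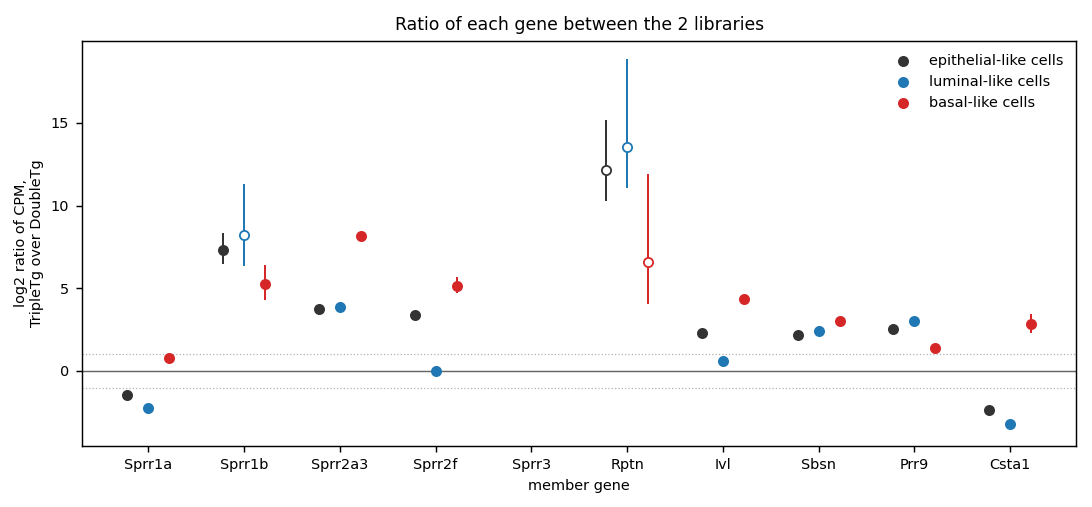
Log2 ratio of TripleTg over DoubleTg CPM for each member in epithelial-, luminal- and basal-like cells, with 95% counting intervals. Open circles have at most 3 UMIs in 1 library and dotted lines mark a log2 ratio of 1 and -1. Sprr1a moves from -2.21 in luminal-like to 0.80 in basal-like cells, and Csta1 from -3.20 to 2.85. The filter on low values fixed the direction of Csta1 in both classes.

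Within the DoubleTg library, luminal-like cells with and without an hMETtg UMI were compared (4162 and 773 cells, median 37319.5 and 25732 UMIs). Of 7 members with a ratio, 2 were at least 2-fold higher in positive cells and 0 lower, beside 1.92% of 8602 genes higher and 1.45% lower. Sprr2a3 was 203 against 18.3 CPM (3.47, 3.33 to 3.60) and Ivl 29.2 against 7.61 CPM (1.94, 1.73 to 2.16). The positive cells were deeper, and with every cell thinned to 5000 UMIs these 2 ratios were 3.24 and 1.51. Prr9 was 758 against 446 CPM (0.76), Sprr1a 1827 against 1363 CPM (0.42), Sbsn 71.1 against 53.4 CPM (0.41) and Sprr2f 24.4 against 37.9 CPM (-0.64). Ratios were also averaged inside 8 of the 10 luminal-like clusters, weighted by their hMETtg-positive cells, with clusters 1 and 23 not among them. Sprr2a3 kept a ratio of 2.60 and was higher in 7 of 8, and Ivl was 0.82 and higher in 5 of 8. The highest Ivl ratios, 4.41 and 3.35, were in clusters 12 and 5, where the negative cells held 4 UMIs and 1 UMI, and cluster 13 followed at 2.82 with 12 UMIs in them. In cluster 15, which held the most Ivl UMIs, the ratio was -0.21 (-0.50 to 0.088). Inside clusters Sprr1a averaged -0.16 and was higher in 3 of 8, and Sbsn averaged -0.17 and was higher in 4 of 8. Csta1, at -0.13 in the whole class, averaged 1.39 inside clusters and was higher in 7 of 8, but in 4 of them (11, 12, 13 and 15) the negative cells held 1 UMI. In clusters 4 and 5, which held the most Csta1, the ratio was 0.50 (0.21 to 0.80) and 0.37 (0.20 to 0.55).

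Other genes of the cornification pathway, from lists that were chosen with earlier results of these data known, were read the same way in the epithelial-like cells of the 2 genotypes. Over all genes tested 9.58% were at least 2-fold higher and 12.0% lower. A gene that passed the filter of 5 CPM only through TripleTg had to be higher there, and one that passed only through DoubleTg had to be lower. The counts are therefore descriptions. Of the other structural genes of the complex, 12 of 44 passed the filter on low values, of which 7 were at least 2-fold higher in TripleTg, 0 lower and 5 between, with a median of 1.26. Of the 7, Tchh, S100a7a, Lce3f and Sprr2d were under 5 CPM in DoubleTg and passed through TripleTg. Tchh (trichohyalin, of the hair follicle inner root sheath) was 118 against 1.30 CPM (6.50) and had its highest level in luminal-like cluster 3 (807 CPM), the cluster with the most Prr9 and Rptn, and the next in cluster 22 (455 CPM). S100a7a was 65.3 against 0.357 CPM (7.51) and had the same 2 leading clusters, at 400 and 257 CPM. The 6 Lce3 genes, late envelope proteins that were singled out after their values were seen, all had 0 UMIs in DoubleTg and between 29 and 1844 UMIs in TripleTg, and Lce3f was at least 9.44 higher on the log2 scale against a limit of 3 UMIs for the class. Flg and Flg2, the filaggrin genes of epidermis, had 0 UMIs in both.

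Of the 4 enzymes that join envelope proteins, Tgm3 and Tgm1 were at least 2-fold higher. Both were under 5 CPM in DoubleTg and passed the filter through TripleTg, which fixed their direction. Tgm3 had 14248 against 11 UMIs (10.51, 9.67 to 11.52), with 310 CPM in luminal-like cluster 3, and Tgm1 was 10.1 against 2.20 CPM (2.19), with 60.8 CPM in cluster 22. Tgm2 (-0.17) lay between, and Tgm5 did not pass the filter on low values. Scaffold and desmosome genes moved less, with 2 of 9 higher, 1 lower and a median of 0.36. Dmkn (dermokine) was 170 against 8.32 CPM (4.35) and again led in luminal-like cluster 3 (648 CPM), while Ppl (periplakin) was 82.1 against 42.1 CPM (0.96). The lower gene was Evpl (envoplakin), at 4.12 against 13.7 CPM (-1.73), which passed the filter through DoubleTg alone.

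Of 8 keratins that passed, 1 was higher (Krt16, 1.45), 1 lower (Krt13, -1.76) and 6 between, with a median of -0.41, shares near the 9.58% and 12.0% of all genes. Krt1 and Krt10, the keratins of epidermal suprabasal cells, reached at most 30.6 and 53.1 CPM, both in TripleTg cluster 22. Both cystatins that passed lay between. Of 6 proteases, inhibitors and lipid enzymes, 3 were higher and 2 lower. Among the higher genes Asprv1 and Elovl4 passed the filter through TripleTg alone. Among the lower genes Aloxe3 passed through DoubleTg alone. Asprv1, a filaggrin-processing protease, was 21.0 against 0.383 CPM (5.77) and had 266 CPM in cluster 22. Spink5, a protease inhibitor of cornified skin, was 19.7 against 1072 CPM (-5.77), and its DoubleTg peak of 7577 CPM was in luminal-like cluster 4, the cluster with the most Csta1.

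Of the 14 regulators of squamous differentiation, 5 were at least 2-fold higher in TripleTg, 3 lower and 6 between, with a median of 0.54. Over all genes tested the shares were 9.58% higher and 12.0% lower. Of the 5, Grhl3, Zfp750, Trp63 and Prdm1 were under 5 CPM in DoubleTg and passed through TripleTg. Of the 3, Cebpa (4.43 against 12.1 CPM) and Sox2 (2.51 against 5.52 CPM) were under 5 CPM in TripleTg and passed through DoubleTg. Grhl3 was 17.1 against 1.47 CPM (3.54), Zfp750 20.9 against 4.29 CPM (2.29) and Trp63, the basal-cell factor, 9.10 against 2.12 CPM (2.10). Zfp750 and Trp63 had their highest level in TripleTg basal-like cluster 13 (98.2 and 75.7 CPM), where Ivl and Sprr1a also peaked. Prdm1 (49.4 against 4.50 CPM, 3.46) and Ovol1 (45.9 against 18.0 CPM, 1.35) had theirs in luminal-like cluster 3. Fosl1, an AP-1 subunit, was lower, at 100 against 207 CPM (-1.05). Klf4 was 248 against 225 CPM (0.14).

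Genes outside these lists were ranked by how closely their log UMIs followed the number of members in a cell at 5000 UMIs. Over 6676 DoubleTg cells and 6687 genes the closest were Mmp7 (r = 0.47), Tmsb4x (0.43), B2m (0.43), Crip1 (0.43) and Areg (0.41). Over 6333 TripleTg cells and 6371 genes they were Ly6d (0.48), Tmsb4x (0.40), Fam25c (0.32), Sh3bgrl3 (0.31) and Mal (0.31). Tmsb4x was among the 5 in both libraries. The cells of a ranking share 1 library and the member count was taken from the same cells, so these values are descriptions.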

How the data were processed

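The authors deposited UMI counts that are not normalized. Cell Ranger made them (6.0.2 per the submitters' processing notes, while the DoubleTg file header names another release) on mm10 with both transgene sequences added. Cells with more than 200 and fewer than 7000 genes and under 15% mitochondrial UMIs were kept, which the TripleTg matrix met already.

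Each library was clustered with scanpy 1.11.5 (counts per 10000 on a log scale, 2000 variable genes, 20 components, 15 neighbours, Leiden resolution 1), without the members and listed genes. Clusters were named from marker lists, with thresholds set after the clusters had been seen; 4 DoubleTg (1517 cells) and 5 TripleTg clusters (1749 cells) stayed unnamed. Members and lists were chosen with earlier results of these data known.

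UMIs were summed over the cells of a class and given per 1000000 (CPM). The background over all genes used those reaching 5 CPM in either group. A sum of 0 was set to 3 UMIs for a bound, sums of 1 to 3 were kept as counted, and no ratio was given where both sums were at most 3. Intervals are exact Poisson, Clopper-Pearson and conditional binomial. Thinning to 5000 UMIs left out 308 DoubleTg and 275 TripleTg epithelial-like cells. Expected numbers of cells multiply the members' shares. Values for list genes are given for those with at least 50 CPM in an epithelial-like class, and a few others (Flg, Flg2, the Lce3 genes, Evpl, Tgm2, Tgm5, Krt1 and Krt10) were named after their values were seen. The log2 ratios were tested on simulated data of the whole libraries, where 200 of 200 changed genes among 8932 came within 0.2 of the known log2 ratio. Doublets were scored with Scrublet, which called 302 DoubleTg cells (2.85%) and 0 TripleTg cells, so the caller had not worked in TripleTg and no cells were removed.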

Additional observations from a re-analysis of the deposited data

How the results depend on the processing

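Depth and the UMI minimum set how many cells held 2 or more members. In DoubleTg the share was 40.2%, and it was 69.6% with all UMIs, 27.8% at 2000 UMIs per cell, 19.7% with 3 UMIs for a member and 31.1% with the minimum set from non-epithelial-like cells, a setting added after seeing the data. In TripleTg it was 86.4%, and 97.2%, 72.2%, 60.1% and 51.2% under the same settings, 85.0% with unnamed clusters counted in and 87.6% at Leiden resolution 0.5. Observed over expected cells were 0.988 in DoubleTg and 0.897, 1.15, 1.42 and 1.05 under those settings. In TripleTg the ratio was 0.957, and 0.977 with all UMIs, 1.01 with 3 UMIs and 0.947 with the set minimum.

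The members' median log2 ratio between genotypes was 2.56. It was 2.43 in luminal-like, 4.34 in basal-like and 2.65 in hMETtg-positive epithelial-like cells, 2.67 with TMM factors of edgeR 4.0.16, 2.69 relative to the median of all genes, 2.60 at 5000 UMIs, 2.62 without the 1% of cells with most member UMIs, 2.54 with unnamed clusters counted in and 2.59 without the 5% of cells with the highest doublet score (added after seeing the data). Of 81 member ratios under these settings 3 changed sign, Sprr2f in luminal-like cells (-0.030) and Sprr1a (0.80) and Csta1 (2.85) in basal-like cells. With no filter on low values, 21.4% of 18978 genes were higher and 16.1% lower. Between hMETtg-positive and hMETtg-negative luminal-like cells the median was 0.42, and 0.38 within clusters, 0.45 at 5000 UMIs, 0.56 over all epithelial-like cells and 0.49 without the highest doublet scores. Of 35 member ratios 4 whose interval excluded 0 changed sign, Sprr1a (-0.16) and Sbsn (-0.17) within clusters and Sprr2f (0.38) and Ivl (-0.13) over all epithelial-like cells. Csta1 (-0.13, with an interval that held 0) became 1.39 and 0.73 under the same settings. The cause of these changes was not tested.

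Removing Scrublet doublets was run for DoubleTg alone and left its share at 40.2%, its observed over expected cells at 0.990 and the hMETtg median at 0.42. With 1 library per genotype no library was left out in turn. No paired analysis was possible because the labels give no replicate numbers and each genotype has 1 library.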
